A study of Mus musculus with 62 samples.

Results

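The genes described are the nuclear genes for subunits of mitochondrial complex I, taken as every counted gene whose symbol begins with Nduf, followed by the letter a, ab, b, c, s or v and then a digit. This pattern took 37 of the 11121 counted genes, and it leaves out the Ndufaf genes, which encode assembly factors. Of the 37, 36 encode subunits of complex I. The remaining gene, Ndufa4, was named as a complex I subunit and has since been assigned to complex IV. The annotation holds 43 genes that match the pattern, and those outside the count table, Ndufb1-ps, Ndufa4l2, Ndufa11b, Ndufb4c, Ndufs6b and Ndufab1-ps, were not analysed here.

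RNA came from brain tissue, the prefrontal cortex (PFC) or the NAc (nucleus accumbens), of wild-type C57BL/6j male mice aged 15 weeks. The mCRS mice had been exposed to multimodal chronic restraint stress, a course of daily restraint in tubes under changing conditions, and the CTR mice were unstressed controls of the same strain, genotype and age. Libraries were made by BRB-seq, which reads the 3′ ends of transcripts and barcodes each sample at reverse transcription before pooling. The PFC gave 15 libraries of CTR and 15 of mCRS mice, and the NAc 16 and 16.

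Complex I, or NADH:ubiquinone oxidoreductase, is the entry point of the respiratory chain. It takes electrons from NADH, hands them through a flavin and a series of iron-sulfur clusters to ubiquinone, and pumps protons across the inner mitochondrial membrane. Its matrix arm carries the redox groups and its membrane arm the proton pumps. Core subunits conserved from bacteria do the chemistry, split between nuclear DNA and mtDNA, while accessory subunits, all of nuclear origin, surround and stabilise them. Neurons draw heavily on this chain for ATP, and inherited loss of subunits such as Ndufs4 causes Leigh syndrome, a disease of the brain. The 36 subunit genes fell into 7 core genes, 9 accessory genes of the matrix arm, 19 accessory genes of the membrane arm, and Ndufab1, an acyl carrier protein present in both arms.

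Library totals lay between 945286 and 4857359 counts, of which the 37 genes received between 5321 and 35486 per library. The share of genes with a count was 87.1% ± 4.42 in PFC CTR and 82.3% ± 6.22 in PFC mCRS libraries (SD, n = 15 each), and 90.2% ± 7.13 and 88.5% ± 7.43 in NAc CTR and NAc mCRS libraries (SD, n = 16 each). The dissections were checked with marker genes. All 9 markers of striatal projection neurons were lower in the PFC than in the NAc at an FDR below 0.05, and of 8 markers of cortical excitatory neurons 5 were higher and 1 lower. A pair of NAc libraries stood apart. In NAc CTR replicate 7 the striatal markers summed to 550 CPM (counts scaled to a common library total), against 3754 to 8644 in the other 15 libraries of its group, so its striatal label was poorly borne out. Its cortical excitatory markers were also the lowest of the group, at 683 CPM against 952 to 2112. In NAc mCRS replicate 10 the choroid plexus markers summed to 22889 CPM, against at most 117 in the other 15. Counts, lists and correlations that use the NAc are therefore also given without these libraries, while levels are given over all libraries. Without them the log2 fold changes of single members in the NAc moved by -0.13 to 0.14.

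The members are spread over 15 chromosomes, and promoters are shown here for a selection of them. The selection leaves out Ndufa1, Ndufa2, Ndufa5 and Ndufs4, which are named below in the comparisons between regions. Promoters of RefSeq (GRCm38.p6) were at hand for 33 of the 37 genes. Ndufv2, Ndufa4, Ndufc2 and Ndufa6 had the smallest unadjusted p values for stress in the PFC, Ndufa11 was among the genes for which the effect of stress differed most between regions, and Ndufc1 had the lowest fold change for stress in both. Each line holds the 100 bases before the annotated start and the 30 from it on, 5′ to 3′ on the strand of the gene. Capitals mark a match to the motif of Nrf1 (GCATGCGC), Yy1 (AAGATGGC) or Sp1 (GGGCGG) on either strand.
Ndufv2, chr17:66101530-66101659, minus strand: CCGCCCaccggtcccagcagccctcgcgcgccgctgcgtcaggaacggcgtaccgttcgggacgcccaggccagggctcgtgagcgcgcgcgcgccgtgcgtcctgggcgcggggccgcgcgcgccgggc
Ndufa4, chr6:11907421-11907550, minus strand: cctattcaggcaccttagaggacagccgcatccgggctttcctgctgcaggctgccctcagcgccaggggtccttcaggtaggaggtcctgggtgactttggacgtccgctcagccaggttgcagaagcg
Ndufc2, chr7:97399903-97400032, plus strand: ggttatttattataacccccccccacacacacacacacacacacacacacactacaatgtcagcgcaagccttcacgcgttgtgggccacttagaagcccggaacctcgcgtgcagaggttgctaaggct
Ndufa6, chr15:82354262-82354391, minus strand: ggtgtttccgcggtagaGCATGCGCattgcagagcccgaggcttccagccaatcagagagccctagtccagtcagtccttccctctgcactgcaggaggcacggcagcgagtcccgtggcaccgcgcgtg
Ndufa11, chr17:56717662-56717791, plus strand: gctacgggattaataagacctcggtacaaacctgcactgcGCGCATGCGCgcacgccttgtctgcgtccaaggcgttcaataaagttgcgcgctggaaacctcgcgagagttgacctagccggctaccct
Ndufc1, chr3:51408926-51409055, minus strand: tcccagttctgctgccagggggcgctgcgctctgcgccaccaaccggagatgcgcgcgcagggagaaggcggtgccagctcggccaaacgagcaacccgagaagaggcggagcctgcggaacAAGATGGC
The Ndufv2 stretch held an Sp1 motif, Ndufa6 an Nrf1 motif, Ndufa11 a pair of overlapping Nrf1 motifs on opposite strands and Ndufc1 a Yy1 motif, while those of Ndufa4 and Ndufc2 held none of the motifs searched. Among genes not shown, the same stretch of Ndufa1 and of Ndufs4 also held none.

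Nrf1, Gabpa and Yy1 are transcription factors known to drive nuclear genes of the respiratory chain, and Sp1 is a general factor of CpG-rich promoters. Over the whole window of each promoter, from 250 bases before the start to 50 after it, the Yy1 motif was found in 7 of 33 members (21.2%), in 5.6% of the counted genes and in 2.7% of all 32851 promoters. All 7 Yy1 matches of the members lay 22 to 38 bases after the start, on the strand of the gene. Of the matches of counted genes, 54.8% lay after the start. The motif contains the letters ATG, and its overlap with start codons was not tested. The Nrf1 motif was found in 3 members (9.1%), in 6.2% of counted genes and in 2.7% of all promoters. The Gabpa motif, CCGGAAGT, was found in 1 member (3.0%), Ndufs3, against 9.2% of counted genes and 3.9% of all promoters. The Sp1 motif was present in 15 members (45.5%), in 71.1% of counted genes and in 35.7% of all promoters. These shares describe letters in a fixed window and not binding.

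The first question was how mCRS left the complex I genes in the PFC. In the PFC, 27 of the 37 genes had a log2 fold change above 0 in mCRS against CTR mice, and their median was 0.22, where 49.3% of the 8916 genes tested lay above 0 with a median of -0.01. For the 36 subunits of complex I the median was 0.20, with 26 above 0. At an unadjusted p below 0.05, 6 members were higher and 0 lower, against 2.12% of all genes called higher and 1.38% called lower. No member passed the FDR of 0.05 with edgeR, and the smallest FDR was 0.833, with 0.9997 for 35 of the 37. DESeq2 also had 0 calls at its adjusted p, which it left undefined for 29 of the 37, with 10 members at an unadjusted p below 0.05. Over the other settings tried, DESeq2 included, the lowest FDR was 0.095 for Ndufv2 and 0.128 for Ndufa4 and for Ndufc2. Leaving out PFC mCRS replicate 6 lowered the 6 to 3. With log2 library size as a covariate 2 members were higher and 2 lower at that p. In bulk tissue, a change in the share of a cell type and a change in RNA per cell cannot be told apart.

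**Figure D1:**
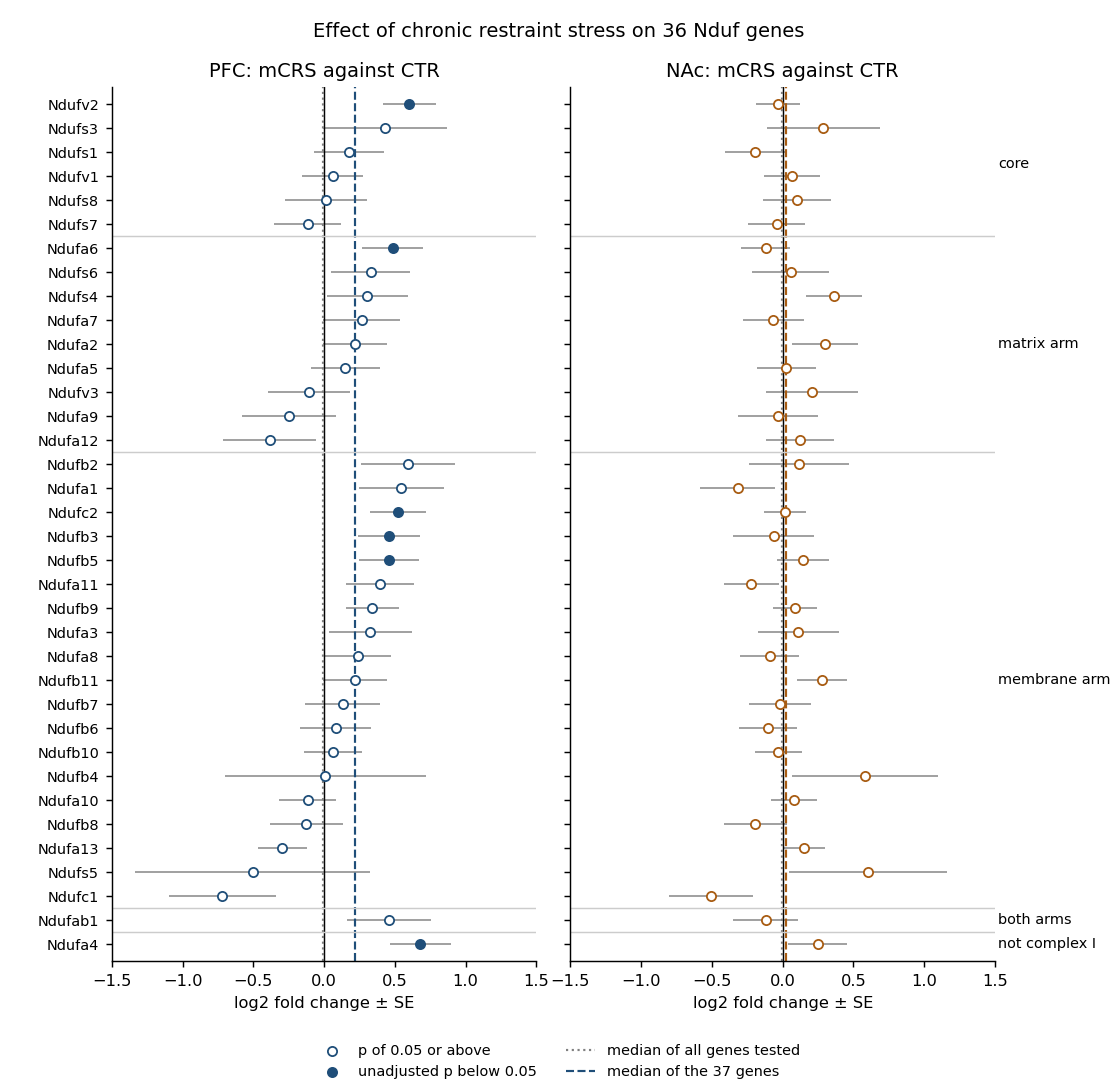
Log2 fold change ± SE of mCRS against CTR for 36 of the 37 genes, ordered by role, in the PFC (n = 15 and 15) and the NAc (n = 16 and 16). Filled points had an unadjusted p below 0.05, the dashed line is the median of the 37 genes (0.22 and 0.03) and the dotted line that of all genes tested (-0.01 in each region). The 6 filled points all lie in the PFC to the right of 0.

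Among the core subunits, Ndufv2 stood out in the PFC. Ndufv2 (ENSMUSG00000024099) holds the iron-sulfur cluster beside the flavin site where NADH gives up its electrons. It lies on chromosome 17 of GRCm38 from 66078638 to 66101559, in 8 exons. Its level in PFC CTR libraries was 7.47 at the lowest, 8.38 at the median and 9.18 at the highest on the log2 CPM scale, and in PFC mCRS libraries 7.98, 8.91 and 9.78. Of 15 mCRS libraries 13 lay above the CTR median and 7 above the highest CTR library, although the groups overlapped. The log2 fold change was 0.60 (SE 0.19, 95% interval 0.23 to 0.98, unadjusted p = 0.00252, FDR = 0.833). The other core subunits had fold changes within 1 SE of 0. Ndufs1, the large iron-sulfur subunit, was at 0.18 (SE 0.25). Ndufs7, which carries the last iron-sulfur cluster, was at -0.12 (SE 0.24), and Ndufv1, the flavin subunit, at 0.06 (SE 0.22). Ndufs3, of the module that binds ubiquinone, was at 0.43 (SE 0.44), and Ndufs8, which carries iron-sulfur clusters, at 0.01 (SE 0.29). The core group as a whole had 5 of 7 genes above 0 and a median of 0.06.

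The matrix arm accessory genes had 6 of 9 above 0 and a median of 0.22 in the PFC, with Ndufa6 alone at an unadjusted p below 0.05. Ndufa6 is a small protein of the LYR family that docks the acyl carrier Ndufab1 on the matrix arm. Its log2 CPM in PFC CTR libraries ran from 7.13 over a median of 7.78 to 8.95, and in PFC mCRS libraries from 6.32 over 8.50 to 9.17. Thus 13 of 15 mCRS libraries exceeded the CTR median, while 2 fell below every CTR library. The log2 fold change was 0.48 (SE 0.21, unadjusted p = 0.0278). Ndufab1, its partner, had a fold change of similar size that did not pass (0.46, SE 0.29, unadjusted p = 0.125).

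In the membrane arm, 14 of 19 accessory genes lay above 0 in the PFC, with a median of 0.22 and 3 genes at an unadjusted p below 0.05. Ndufc2, an accessory protein of the inner membrane, had log2 CPM values of 7.07, 8.53 and 9.79 (lowest, median and highest) in PFC CTR and 7.57, 8.98 and 10.08 in PFC mCRS libraries. Of the mCRS libraries 12 of 15 lay above the CTR median, within overlapping ranges. Its log2 fold change was 0.52 (SE 0.20, unadjusted p = 0.0113). Ndufb5, of the distal membrane arm, went from 7.17, 8.16 and 9.28 in CTR to 7.48, 8.73 and 9.60 in mCRS libraries, with a log2 fold change of 0.46 (SE 0.21, unadjusted p = 0.0343). Ndufb3, a small distal subunit, went from 6.38, 7.33 and 8.52 to 6.35, 8.02 and 8.65, also with a log2 fold change of 0.46 (SE 0.22, unadjusted p = 0.0422). For each of these genes 12 of 15 mCRS libraries lay above the CTR median, and the ranges of the groups overlapped. Exons of Ndufb5 overlap Mrpl47 on the opposite strand, and whether the counting used strand is not given in the sources used here.

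Ndufa4, a small subunit now placed in cytochrome c oxidase, had the largest fold change of the 37 in the PFC. Its log2 CPM was 8.33 at the lowest, 9.46 at the median and 10.88 at the highest in PFC CTR libraries, and 8.93, 10.35 and 11.17 in PFC mCRS libraries. Of 15 mCRS libraries 14 exceeded the CTR median and 4 the highest CTR library. The log2 fold change was 0.68 (SE 0.22, 95% interval 0.25 to 1.10, unadjusted p = 0.00283, FDR = 0.854).

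Not all members lay above 0. Ndufc1, a small membrane arm protein, had the lowest fold change in the PFC, -0.72 (SE 0.38, unadjusted p = 0.0631). Its log2 CPM was 5.51, 6.69 and 7.68 in PFC CTR libraries and -0.37, 6.19 and 7.47 in PFC mCRS libraries, where 1 library held no count. In this gene 4 of 15 mCRS libraries fell below every CTR library and 4 lay above the CTR median. Ndufs5 had the next lowest value, -0.51, but with an SE of 0.83, the largest among the members. It had few counts, with none at all in 2 CTR and 2 mCRS libraries, and 36.2% of the read-length windows near its 3′ end have an exact copy in another transcript.

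**Figure D2:**
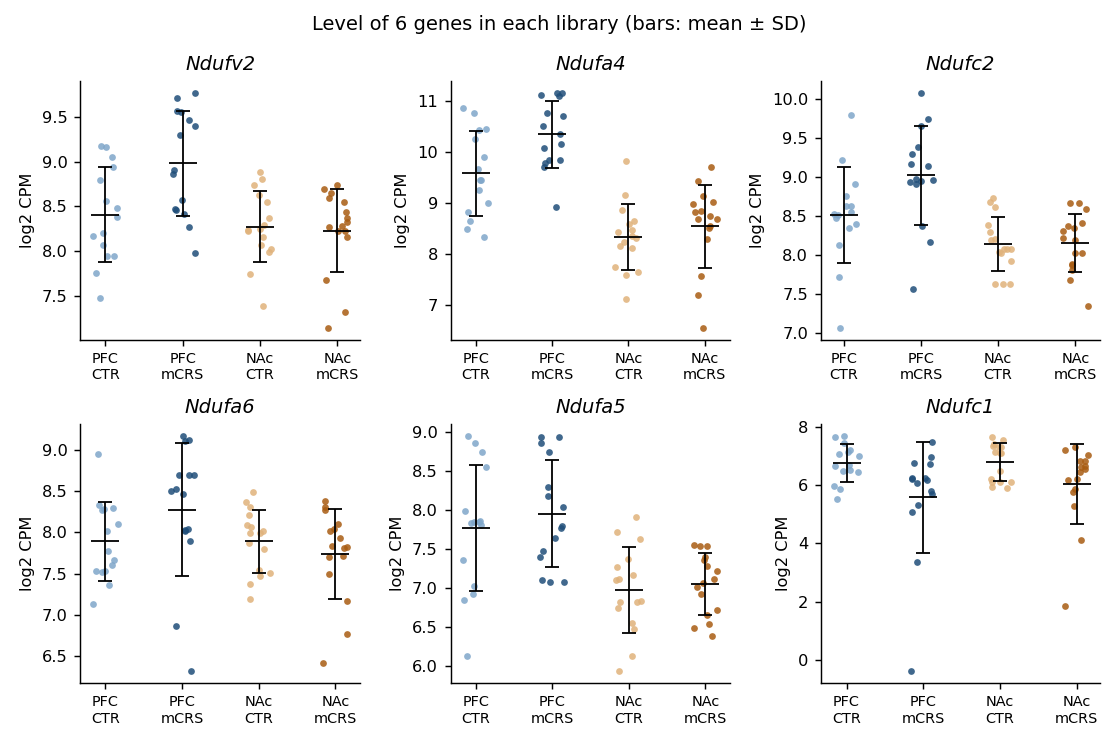
Log2 CPM of 6 members in each library of the 4 groups (15 PFC CTR, 15 PFC mCRS, 16 NAc CTR and 16 NAc mCRS), with points for libraries and bars for the mean ± SD. In the PFC, Ndufv2 has a mean of 8.41 in CTR and 8.98 in mCRS libraries, whereas in the NAc the means are 8.27 and 8.23.

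Other features of the libraries moved with stress in the PFC. The share of genes detected was lower after mCRS, as given above. With that share as a covariate the members above 0 were 23, their median was 0.08, and 1 member was higher and 1 lower at an unadjusted p below 0.05. Ndufv2 was then at 0.48 (unadjusted p = 0.0218), Ndufa4 at 0.38 (unadjusted p = 0.0855) and Ndufc2 at 0.19 (unadjusted p = 0.330). In the libraries with at least 80% of genes detected, 15 CTR and 11 mCRS, Ndufv2 was at 0.60 (unadjusted p = 0.00361), Ndufa4 at 0.60 (unadjusted p = 0.0136) and Ndufc2 at 0.35 (unadjusted p = 0.102). Markers of cortical excitatory neurons had 1 of 8 genes above 0, none of them at 0 in every library, and their summed level ran from 3953 to 7441 CPM in PFC CTR and from 3576 to 6451 CPM in PFC mCRS libraries. Of 5 general neuron markers 4 lay below 0, with Rbfox3, a nuclear protein of neurons, at -0.54 (SE 0.19, unadjusted p = 0.00626, FDR = 0.945) and a median over the list of -0.04. All 5 astrocyte markers lay below 0, with sums of 1052 to 1690 CPM in CTR and 697 to 1379 CPM in mCRS libraries. The part of these cell types in the values of the members was not tested.

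Transcripts of the members are short, with a median of 908 bases against 3180 for all counted genes. The quartile of shortest transcripts, which holds 33 of the 37, had a median log2 fold change of 0.06 over all its genes in the PFC, with 56.3% above 0. Its 33 members had a median of 0.22, and 24 lay above 0. In the longer quartiles the median over all genes was -0.01, -0.04 and -0.06.

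In the NAc the values of the members lay closer to 0. Of the 37, 20 lay above 0 after mCRS with a median of 0.03, where 49.3% of 10141 genes lay above 0 with a median of -0.01. With edgeR, 0 members passed the FDR and 0 had an unadjusted p below 0.05, against 0.986% of all genes called higher and 1.06% called lower, and DESeq2 had 0 at its adjusted p and 1 at an unadjusted p below 0.05. Without the NAc libraries that stood apart, 18 lay above 0, the median was -6.7e-05 and 0 had an unadjusted p below 0.05. The standard errors of the members had a median of 0.21 in the NAc and 0.25 in the PFC. By role, 3 of 7 core genes (median -0.01), 6 of 9 of the matrix arm (0.06) and 10 of 19 of the membrane arm (0.02) lay above 0.

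The gene with the smallest p in the NAc was Ndufs4, an accessory subunit of the matrix arm. Its log2 CPM was 6.39 at the lowest, 6.87 at the median and 7.67 at the highest in NAc CTR libraries, and 6.22, 7.40 and 8.01 in NAc mCRS libraries. In 13 of 16 mCRS libraries it lay above the CTR median, and the ranges overlapped (log2 fold change 0.36, SE 0.20, unadjusted p = 0.0748). Ndufc1, the lowest member in the PFC, was also the lowest here (-0.51, SE 0.30, unadjusted p = 0.0933). Its log2 CPM went from 5.89, 7.09 and 7.65 in NAc CTR to 1.85, 6.49 and 7.30 in NAc mCRS libraries, and 2 of 16 mCRS libraries lay above the CTR median. Neither fold change passed the test.

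None of the 6 genes with an unadjusted p below 0.05 in the PFC passed at that p in the NAc. Ndufv2 was at -0.03 (SE 0.16, 95% interval -0.34 to 0.28), with log2 CPM values of 7.39, 8.24 and 8.89 in CTR and 7.14, 8.31 and 8.74 in mCRS libraries. Ndufc2 was at 0.02 (SE 0.15), Ndufa6 at -0.12 (SE 0.17), Ndufb3 at -0.06 (SE 0.29) and Ndufb5 at 0.14 (SE 0.18). Ndufa4 was at 0.25 (SE 0.21, unadjusted p = 0.236), with NAc levels of 7.12, 8.34 and 9.83 in CTR and 6.56, 8.72 and 9.70 in mCRS libraries, and it was at 0.38 (SE 0.19, unadjusted p = 0.0521) without the libraries that stood apart. The remaining core genes lay between -0.19 (Ndufs1, SE 0.21) and 0.29 (Ndufs3, SE 0.40). Among the other members named by size or p, Ndufb11, of the distal membrane arm, was at 0.28 (SE 0.17), Ndufa2, a matrix arm protein with a thioredoxin-like fold, at 0.30 (SE 0.23), and Ndufa1, a small X-linked membrane arm subunit, at -0.32 (SE 0.27). The largest values, 0.60 for Ndufs5 (SE 0.56) and 0.58 for Ndufb4 (SE 0.52), belonged to the members with the fewest counts.

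Whether the effect of mCRS differed between the regions was tested with the term for region by treatment in a fit of all 62 libraries, with positive values where the effect was higher in the PFC. Of the 37 members, 22 lay above 0 and the median difference was 0.13 on the log2 scale, where 48.9% of 11025 genes lay above 0 with a median of -0.02. At an unadjusted p below 0.05, 4 members were higher and 1 lower, against 1.45% and 1.64% of all genes. With edgeR 0 members passed the FDR, and DESeq2 had 0 at its adjusted p and 7 at an unadjusted p below 0.05. Ndufv2 had the smallest p, with a difference of 0.62 (SE 0.25, unadjusted p = 0.0138). It was followed by Ndufa6 (0.60, SE 0.28, unadjusted p = 0.0341) and Ndufa1 (0.85, SE 0.39, unadjusted p = 0.0343). Ndufa11, a membrane arm subunit at contacts with complex III, had a difference of 0.61 (SE 0.31, unadjusted p = 0.0494).

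For Ndufa1 the medians of mCRS and CTR libraries stood in opposite order in the 2 regions. Its log2 CPM in the PFC was 4.60, 6.43 and 7.39 in CTR and 5.73, 6.93 and 8.25 in mCRS libraries. In the NAc it was 6.13, 6.65 and 7.39 in CTR and 4.62, 6.48 and 7.29 in mCRS libraries. All these ranges overlapped. Ndufa13, also known as GRIM-19, was the member lower at an unadjusted p below 0.05 (-0.46, SE 0.22, unadjusted p = 0.0415), with log2 fold changes of -0.30 (SE 0.17) in the PFC and 0.15 (SE 0.14) in the NAc. Further below 0 lay Ndufs5 (-1.11, SE 0.98), Ndufb4 (-0.57, SE 0.81) and Ndufa12 (-0.52, SE 0.39), none of which passed at that p. For Ndufa4 the difference was 0.42 (SE 0.32, 95% interval -0.20 to 1.04). Without the NAc libraries that stood apart, 3 members were higher (Ndufv2, Ndufa1 and Ndufc2) and 1 lower (Ndufa13) at an unadjusted p below 0.05, while Ndufa6 (unadjusted p = 0.0542) and Ndufa11 (unadjusted p = 0.0551) did not pass.

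The regions were next compared without stress, PFC CTR against NAc CTR. Here 25 of 37 members lay above 0, that is, higher in the PFC, with a median of 0.10, where 48.9% of 9932 genes lay above 0 with a median of -0.02. At an FDR below 0.05, 4 members were higher in the PFC and 0 lower, against 4.23% and 2.09% of all genes. These 4 were Ndufa4 and the matrix arm accessory genes Ndufa5, Ndufa2 and Ndufs4. None of the 7 core genes passed, the highest of them being Ndufv1 at 0.19 (SE 0.20), nor did any of the 19 membrane arm genes.

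Ndufa4 showed the largest gap, with log2 CPM values of 8.33, 9.46 and 10.88 in PFC CTR and 7.12, 8.34 and 9.83 in NAc CTR libraries. In 14 of 15 PFC libraries it lay above the NAc median, although the ranges overlapped (log2 fold change 1.34, SE 0.22, FDR = 1.4e-05). Ndufa5 ran over 6.12, 7.85 and 8.95 in PFC CTR and 5.93, 6.97 and 7.91 in NAc CTR libraries, with 12 of 15 PFC libraries above the NAc median. Its log2 fold change was 0.91 (SE 0.23, FDR = 0.00634). Ndufa2 ran over 6.09, 7.82 and 8.68 against 5.80, 6.74 and 7.78, with 13 of 15 PFC libraries above the NAc median (log2 fold change 0.88, SE 0.24, FDR = 0.0108). Ndufs4 was less even, at 6.13, 7.51 and 9.11 against 6.39, 6.87 and 7.67, and 10 of 15 PFC libraries lay above the NAc median. Its log2 fold change was 0.80 (SE 0.24, FDR = 0.0303). The FDR rose to 0.112 without PFC CTR replicate 14, and it was also above 0.05 without PFC CTR replicate 5, 10, 11 or 15, so the call was lost there. The member with the lowest value, Ndufb10, a membrane arm subunit, did not pass (-0.53, SE 0.18, FDR = 0.0707). It lay at 7.16, 7.61 and 8.45 in PFC CTR and 7.37, 8.26 and 9.26 in NAc CTR libraries, and 2 of 15 PFC libraries exceeded the NAc median. Without the NAc library that stood apart in this group, 4 members were higher in the PFC and Ndufb10 was lower at an FDR below 0.05. Ndufab1 was at -0.52 (SE 0.25, FDR = 0.316).

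The same contrast in stressed mice, PFC mCRS against NAc mCRS, uses other libraries. In these, 26 of 37 members were above 0 with a median of 0.24, where 48.1% of 9452 genes were above 0 with a median of -0.03. At an FDR below 0.05, 8 members were higher in the PFC and 0 lower, against 4.23% and 2.07% of all genes, and the count was 7 and 0 without the NAc library that stood apart. With genes detected as a covariate it was 5 and 1. Ndufa4, Ndufa5 and Ndufa2 passed in both contrasts. With genes detected as a covariate Ndufa2 did not (FDR = 0.0520 in CTR and 0.127 in mCRS mice), and with the replicate block Ndufa5 did not in CTR mice (FDR = 0.0564). In these and in the stress comparisons, the ranges of the groups overlapped for each of the 37 members. Across both region contrasts, 28 of 37 members (75.7%) had the same direction, against 67.6% of the 9235 genes tested in both, and 30 (81.1%) against 67.2% without the NAc libraries that stood apart.

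**Figure D3:**
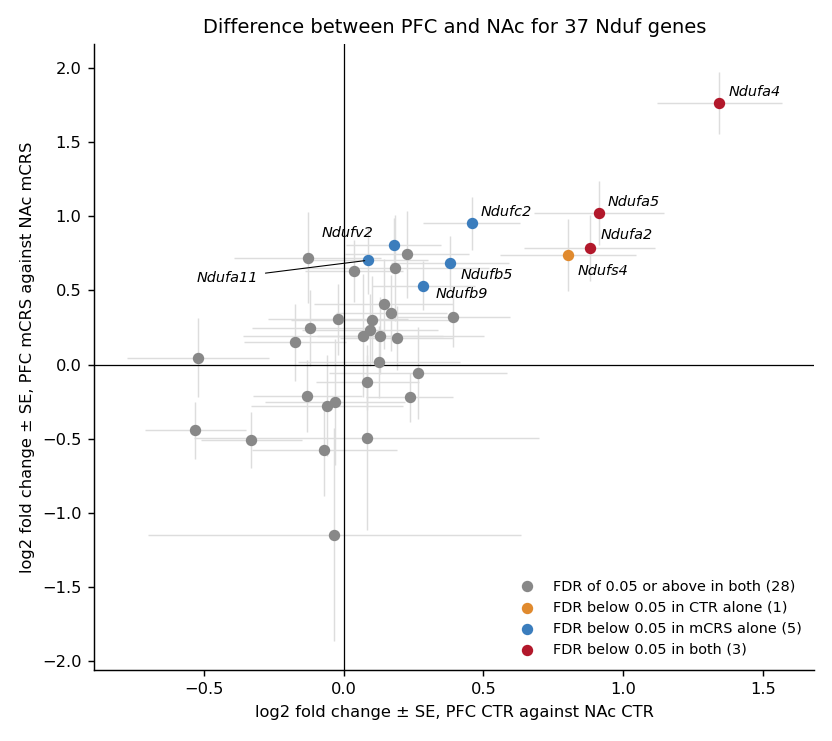
Log2 fold change ± SE of PFC against NAc in CTR mice (horizontal) and in mCRS mice (vertical) for the 37 genes, coloured by which contrast had an FDR below 0.05. Ndufa4 lies farthest from 0 on both axes, at 1.34 and 1.76.

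Ndufa4 was again first, at 8.93, 10.35 and 11.17 in PFC mCRS against 6.56, 8.72 and 9.70 in NAc mCRS libraries. All 15 PFC libraries lay above the NAc median and 14 above the highest NAc library (log2 fold change 1.76, SE 0.21, FDR = 2.5e-09). Ndufc2 lay at 7.57, 8.98 and 10.08 against 7.35, 8.21 and 8.67, with 12 of 15 PFC libraries above every NAc library. Its log2 fold change was 0.95 (SE 0.18, FDR = 9.7e-05). Ndufv2 was the core gene that passed, at 7.98, 8.91 and 9.78 against 7.14, 8.31 and 8.74, with 9 of 15 PFC libraries above every NAc library (log2 fold change 0.81, SE 0.18, FDR = 0.00125). In CTR mice the same contrast of Ndufv2 was 0.18 (SE 0.17). Ndufa5 (1.02, SE 0.22, FDR = 0.000739), Ndufa2 (0.79, SE 0.22, FDR = 0.0175) and Ndufb5 (0.69, SE 0.18, FDR = 0.0107) were also higher in the PFC. The remaining calls, Ndufb9 (0.53, SE 0.16, FDR = 0.0340) and Ndufa11 (0.70, SE 0.22, FDR = 0.0446), were named after their values were seen. Neither passed with RLE or upper-quartile scaling, either covariate on depth, the replicate block or the libraries with at least 80% of genes detected, and Ndufb9 also did not without the NAc library that stood apart (FDR = 0.0573). For Ndufb9, a LYR protein of the distal membrane arm, 25.8% of the windows near its 3′ end are also found in Gm49356, an overlapping gene on the same strand. A pass in 1 contrast and not in the other is not shown to be a difference between CTR and mCRS mice, for which the interaction above is the test.

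The lowest values in this contrast were those of Ndufs5 (-1.15, SE 0.72) and Ndufa12 (-0.58, SE 0.31), and neither passed. Cell types differ between the regions, as the markers above show. Of the neuron markers, 3 of 5 were higher in the PFC at an FDR below 0.05 in each contrast, with sums of 5032 to 7401 CPM in PFC CTR and 3177 to 5046 CPM in NAc CTR libraries. Of the oligodendrocyte markers, 4 of 5 were lower in each, with sums of 1362 to 5908 CPM and 5290 to 8267 CPM in the same groups. No marker on these lists was at 0 in every library, and their part in the values of the members was not tested.

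Other genes of the complex were taken as lists. The mtDNA holds the core subunits of the membrane arm, and 5 of 7 are analysed here. All 5 were above 0 in the PFC after mCRS, with a median of 0.40, an unadjusted p below 0.05 for each, and a smallest FDR of 0.560. In the NAc 4 of 5 were above 0 with a median of 0.06. Between regions all 5 were higher in the PFC, with a median of 0.44 in CTR mice (4 at an FDR below 0.05) and 0.83 in mCRS mice (5 at that FDR). Their interaction had a median of 0.32, with 2 genes at an unadjusted p below 0.05. Without the NAc libraries that stood apart these counts were the same, with medians of 0.07 in the NAc, 0.43 and 0.80 between regions, and 0.30 for the interaction.

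The assembly factors of complex I build the enzyme and are not part of it. Of the 16 tested in the PFC, 7 were above 0 after mCRS with a median of -0.13, and in the NAc 11 of 17 with a median of 0.07. Between regions, 10 of 17 were above 0 in CTR and 9 of 17 in mCRS mice, with medians of 0.11 and 0.01. Without the NAc libraries that stood apart 9 of 17 were above 0 in the NAc (median 0.09), and between regions 10 and 9 of 17 (0.08 and 0.02). With edgeR 0 of them had an unadjusted p below 0.05 in any comparison. Of the transcriptional regulators of nuclear mitochondrial genes (Nrf1, Gabpa, Gabpb1, Yy1, Esrra, Ppargc1a, Ppargc1b and Tfam), 3 of 7 tested were above 0 after mCRS in the PFC and 3 of 7 in the NAc, with 0 at an unadjusted p below 0.05 in both, and 4 of 8 were above 0 in the NAc without the libraries that stood apart.

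Within the groups, members varied together to a small degree. After centring on group means, the median Pearson correlation over the 666 pairs of members was 0.09 in the PFC and 0.08 in the NAc, against 0.01 and 0.04 over all pairs of genes tested. These correlations are across libraries that share depth and quality, and they are given as a description. The closest pair in the PFC was Ndufa4 and Ndufa5 (0.78), and in the NAc Ndufa9 and Ndufb3 (0.72). In the 30 NAc libraries left without those that stood apart, the median was again 0.08 and the closest pair the same.

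The summed level of the members followed the mtDNA share of a library in opposite ways in the regions. As a share of counts outside mtDNA genes, the 37 genes held 0.59% at the lowest, 0.81% at the median and 1.13% at the highest in PFC CTR libraries, and 0.62%, 1.01% and 1.26% in PFC mCRS libraries. In the NAc these were 0.63%, 0.76% and 0.91% in CTR and 0.64%, 0.78% and 0.84% in mCRS libraries. Across the 30 PFC libraries this share rose with the share of all counts that fell on mtDNA genes, with a Pearson r of 0.94 and a Spearman rho of 0.94. The relation was present within PFC CTR (r = 0.94, rho = 0.92) and within PFC mCRS libraries (r = 0.92, rho = 0.89), and r was 0.96 over the 28 libraries left without the 2 farthest from the median. Across the 32 NAc libraries r was -0.49 and rho -0.50 (r = -0.42 without the 2 farthest), with r of -0.45 within NAc CTR and -0.60 within NAc mCRS libraries. Without the libraries that stood apart, r in the NAc was -0.46 and rho -0.48. Without Ndufa4, r was 0.92 in the PFC and -0.55 in the NAc. The difference between regions was not tested.

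**Figure D4:**
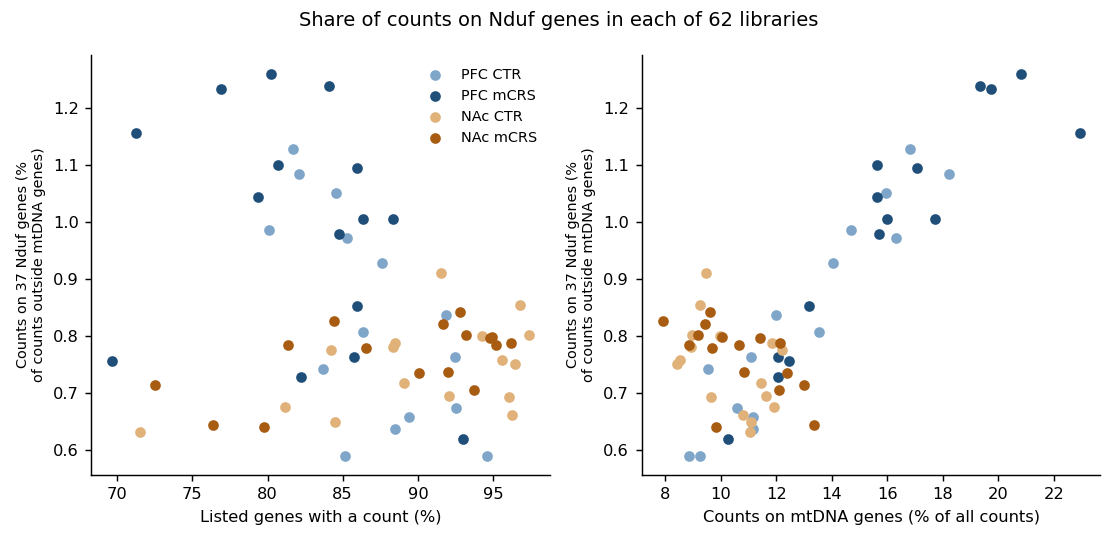
Counts on the 37 genes as a percentage of counts outside mtDNA genes, for each of the 62 libraries, against the percentage of genes detected and against the percentage of counts on mtDNA genes. In the PFC the points rise with the mtDNA share (r = 0.94), and in the NAc they fall (r = -0.49).

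Gene by gene, 27 of 37 members correlated positively with the mtDNA share in the PFC after centring on group means, with a median r of 0.37. Of all 8909 genes tested outside mtDNA, members included, 36.9% did, with a median of -0.08. Ndufa4 (0.83), Ndufb11 (0.80) and Ndufa5 (0.75) were the highest. In the NAc 10 of 37 did, with a median of -0.21, against 36.2% of 10134 genes and a median of -0.07, and without the libraries that stood apart 8 did, with a median of -0.19, against 32.4% and -0.10. The share of genes detected moved along in both regions, with r of -0.53 in the PFC and 0.48 in the NAc against the members' share. The mtDNA share itself was 12.9% ± 3.004 in PFC CTR and 16.04% ± 3.64 in PFC mCRS libraries (SD, n = 15 each), and 10.3% ± 1.31 and 10.6% ± 1.60 in the NAc (SD, n = 16 each). These are values of the same libraries, with no p given, and the part of library quality in them was not tested.

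Shared sequence limits some members. Uniquely mapped reads alone were counted. Of the 37 genes, 10 have at least 1 window of 70 bases, within the last 500 of the transcript, that a transcript of another gene also holds on either strand. The highest shares were those of Ndufs3 (47.1%), Ndufb6 (43.6%) and Ndufs5 (36.2%), shared mainly with Gm12251, Smim27 and BC002163. Gm12251 and BC002163 are processed pseudogenes, whereas Smim27 overlaps exons of Ndufb6 on the opposite strand. The levels of Ndufs3, Ndufb6 and Ndufs5 are therefore uncertain. Braf, Gm20538 and Gm49356, which share windows with Ndufb2, Ndufb8 and Ndufb9, also overlap their exons. For such overlaps the search did not separate the same genomic bases from a second copy. In the PFC the 27 members without a shared window had a median log2 fold change of 0.15 after mCRS, with 19 above 0 and 5 at an unadjusted p below 0.05. In the 10 with one the median was 0.34, with 8 above 0 and 1 at that p. Exons of 13 members overlap a gene on the opposite strand, among them Ndufa2, Ndufa11, Ndufa13 and Ndufb5.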

How the data were processed

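RNA of the PFC and NAc of CTR and mCRS mice was measured by BRB-seq. Per the methods of the study, the authors mapped the cDNA reads with STAR to the mouse genome (mm10, or GRCm38), counted uniquely mapped reads per gene with htseq, and removed PFC samples of poor sequencing quality. The deposited values are raw counts per gene, whole numbers without normalization. No molecular identifiers were used, and an error taken from read numbers covers no more than counting error. The methods describe PFC and NAc taken from each animal, so the regions share mice. Which PFC and NAc libraries share a mouse is not given in the sources used here, so libraries were taken as independent. The main region and interaction fits therefore ignore this pairing. No label names litters or dissection batches.

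Counts were fitted with edgeR 4.0.16 (R 4.3.3), with its default filter by group, TMM normalization and the quasi-likelihood test, for mCRS against CTR in each region, PFC against NAc in each treatment, and the interaction. FDR values are Benjamini-Hochberg adjusted over all genes tested. Each SE is the size of the log2 fold change divided by the square root of the F statistic of its test. The 95% intervals are normal intervals from that SE, so they need not match the p values exactly. All 37 members passed the filter in every comparison. Levels are log2 CPM with a prior count of 2 after TMM over all 62 libraries. Since counts are of 3′ ends, levels were not compared between genes. Correlations of single genes with the mtDNA share used log2 CPM outside mtDNA genes with 0.5 counts added. Symbols, exons and transcripts are those of GENCODE M21 (GRCm38), which named 11120 of 11121 gene IDs, and promoters those of RefSeq (GRCm38.p6).

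The members, roles and lists were chosen with earlier results of these data known. Genes named are the core subunits, the 6 members of smallest p and the 2 highest and 2 lowest fold changes in each comparison, and Ndufa4, and 1 gene under this rule is not reported here. Tests were tried on simulated data with planted changes larger than those of the members for stress, so power for changes of the size seen was not tested. The fits were repeated with DESeq2 1.42.0, with RLE or upper-quartile scaling, with mtDNA genes left out of the library sizes, without the filter, with a minimum of 10 counts in 50% of the libraries, with covariates (genes detected, log2 library size, replicate numbers 1 to 8 against 9 and above), over all 62 libraries jointly, with a replicate block, and libraries left out in turn. The fits on libraries with at least 80% of genes detected and without NAc CTR replicate 7 and NAc mCRS replicate 10, and the relations with the mtDNA share, were added after seeing the data. Behavior, respiration and metabolites were not analysed here.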

Additional observations from a re-analysis of the deposited data

How the results depend on the processing

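The median over the members stayed above 0 in all 5 comparisons under every alternative run, except in the NAc without the libraries that stood apart (-6.7e-05). The number of members at an unadjusted p below 0.05 in the PFC (6 higher, 0 lower) was 10 with DESeq2 (9 higher), 2 with genes detected as covariate (1 higher), 4 with library size as covariate (2 higher) and 4 with 80% detected (3 higher), and 3 to 8 with 1 library left out, 3 without PFC mCRS replicate 6. In the NAc (0) it was 1 with DESeq2, and 0 to 1 with 1 library left out. In PFC CTR against NAc CTR, the number at an FDR below 0.05 (4) was 2 with genes detected as covariate and 3 to 5 with 1 library left out. For these 3 comparisons libraries were left out in turn, and for the other comparisons this was not run. Within a region, CTR and mCRS libraries of the same replicate number come from different mice. Of these pairs, 0 of 15 in the PFC and 0 of 16 in the NAc had a correlation above 0.1 after centring on group means. Whether the numbers follow a batch was not tested. In the PFC, 1 of the CTR and 1 of the mCRS libraries correlated best with its own number in the other group. PFC and NAc libraries of the same number were not compared in this way, so whether the number marks the same mouse was not tested. The replicate block gave 2 members at an FDR below 0.05 in PFC CTR against NAc CTR and 3 at an unadjusted p below 0.05 for the interaction (5 without it), and it moved the median of all genes by over 0.1, to -0.14 in the PFC and -0.21 in PFC mCRS against NAc mCRS. Core genes close to 0 changed sign, and the cause was not tested. In the PFC, Ndufs8 was at -0.016 (upper quartile), -0.14 (genes detected), -0.085 (library size) and -0.031 (80% detected), and -0.10 to 0.17 with 1 library left out. Ndufv1 was at -0.0083 (block) and -0.079 (80% detected), and -0.019 to 0.13 with 1 left out. In the NAc, Ndufs7 was at 0.0017 (genes detected) and 0.0057 (library size), Ndufv2 at 0.015 (genes detected), 0.045 (library size) and 0.059 (80% detected), Ndufs8 at -0.052 (80% detected) and Ndufv1 at -0.017 (without the libraries apart). With 1 NAc library left out, Ndufs7 ran from -0.11 to 0.062, Ndufs8 from -0.0087 to 0.17 and Ndufv2 from -0.072 to 0.025. In PFC CTR against NAc CTR, Ndufs3 was at -0.13 and Ndufs8 at -0.014 with the block, and with 1 library left out they ran from -0.057 to 0.19 and from -0.047 to 0.20. In PFC mCRS against NAc mCRS, Ndufs8 was at -0.046 (DESeq2), -0.047 (RLE), -0.041 (upper quartile), -0.11 (genes detected) and -0.015 (library size), and Ndufs3 at -0.076 (block) and -0.061 (80% detected). For the interaction, Ndufv1 was at 0.013 (genes detected) and 0.064 (without the libraries apart), Ndufs8 at 0.059 (block) and 0.029 (80% detected), and Ndufs3 at -0.16 (80% detected) and -0.019 (without the libraries apart). Of the calls between regions in CTR mice, Ndufs4 was lost with the upper quartile (FDR = 0.0579), both covariates on depth and the block, Ndufa2 with genes detected and Ndufa5 with the block. Ndufb10 was gained with DESeq2, RLE, the upper quartile, 80% detected and without the libraries apart, and Ndufab1 with DESeq2 (FDR = 0.0436). In mCRS mice (8 higher, 0 lower) the count was 5 higher and 1 lower with genes detected and 6 higher with RLE, the upper quartile, library size or the block. It was 9 higher and 1 lower with DESeq2, and 9 higher with the replicate number covariate or all 62 libraries fitted jointly. In mCRS mice Ndufa2 was lost with genes detected and Ndufb5 with 80% detected (FDR = 0.106).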
